A study of Mus musculus with 6 samples.

Results

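The genes described here are 40 mouse genes of the type I interferon response, taken by symbol from a list of genes that interferon alpha and beta induce or that carry their signal. A gene was measured where a probe set (a group of short probes read as 1 value) was annotated with that symbol and no other, and the probe set with the highest mean over the 6 arrays stood for the gene. By that rule 38 of the 40 genes were measured, among 12855 genes tested on the arrays. Isg15, a ubiquitin-like protein, had only a probe set shared with another gene, and Ifi44 had none, so neither was analysed here. All 38 measured genes lay above the 40th percentile of the array on all 6 arrays, so the filter on dim probe sets removed none of them.

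The series compared the thymus of adult female mice of 2 first-generation crosses, to find differences in basal expression between the genotypes. One group (AKR F1, 3 arrays) was (AKR/J x FVB/NJ)F1 and the other (DBA F1, 3 arrays) was (DBA/2J x FVB/NJ)F1. Both therefore carried an FVB/NJ genome, and they differed in whether the other parent was AKR/J or DBA/2J. Whole thymus was frozen in liquid nitrogen, total RNA was taken with Trizol, and biotin-labelled RNA was hybridised to Affymetrix arrays. Apart from Avertin anaesthesia before death, the labels name no treatment, infection or interferon exposure, and they do not name an animal for each array. The tests therefore weigh a difference against the spread among these arrays, part of which may be technical.

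Type I interferons bind the receptor made of Ifnar1 and Ifnar2, whose kinases Jak1 and Tyk2 phosphorylate Stat2 among others. With Irf9, Stat2 takes part in a complex that binds the interferon-stimulated response element (ISRE) in the promoters of its target genes, while the gamma-activated sequence (GAS) is the element of the interferon gamma response. The induced proteins sense foreign RNA and DNA, degrade RNA, block translation or trap virus particles, and others damp the signal. In the thymus, interferon is known to be made without infection, and medullary epithelial cells are a known source of it.

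Many interferon response genes are known targets of the ISRE, and promoter sequence is given for 4 members. Ifit3, Rsad2 and Bst2 passed the test described below and had an ISRE match wholly before the start of the gene. Ifit1, which did not pass, was chosen in addition, and other members with a match are not shown. RefSeq windows of 300 bases, from 250 before to 50 after the start of the gene on GRCm38.p6, were given for 30 of the 40 genes. The ISRE core searched was GAAA, any 2 bases and GAAA again, on either strand, and the GAS was TTCNNNGAA, which reads the same on both strands. An ISRE match was in 13 of the 30 member windows (43.3%) and in 1079 of 27025 genes with a window (3.99%). A GAS match was in 9 of the 30 (30.0%) and in 9.55% of all genes with a window. A match is a description of letters in the reference mouse genome, which is from none of the strains crossed here. The stretches below run 5′ to 3′ on the strand of the gene, with the ISRE matches in capitals.

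Ifit1: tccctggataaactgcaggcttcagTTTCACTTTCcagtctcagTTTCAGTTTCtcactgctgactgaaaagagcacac

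Ifit3: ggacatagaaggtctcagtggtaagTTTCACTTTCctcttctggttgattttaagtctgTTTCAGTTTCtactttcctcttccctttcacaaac

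Rsad2: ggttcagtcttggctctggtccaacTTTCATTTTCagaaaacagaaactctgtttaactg

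Bst2: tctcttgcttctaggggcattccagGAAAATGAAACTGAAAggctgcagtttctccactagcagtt

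The Ifit1 stretch is chr19:34640760-34640838 on the plus strand and the Ifit3 stretch is chr19:34583348-34583441 on the plus strand. Those for Rsad2 (chr12:26456538-26456597) and Bst2 (chr8:71537562-71537627) lie on the minus strand. Ifit1 and Ifit3 each held TTTCACTTTC and TTTCAGTTTC, the opposite-strand reading of an ISRE. In Bst2 the 2 matches overlap each other, and a GAS match overlaps the first of them. Matches were found on both sides of the differences described next. The ISRE was in 4 of the 10 windows of members higher in DBA F1 thymus (40%), in 7 of the 17 windows of members that did not pass the test (41.2%), and in the window of Bst2, the only member higher in AKR F1 thymus that had a window. The window of Oasl2, the member with the largest difference, held no ISRE match.

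More of the interferon response genes were higher in DBA F1 thymus than in AKR F1 thymus. At an adjusted p under 0.05 (limma, Benjamini-Hochberg over all 12855 genes, two-sided), 13 of the 38 (34.2%) were higher in DBA F1 thymus, where the background over all genes was 11.5%. Only Bst2 and Ly6e, 2 of the 38 (5.26%), were higher in AKR F1 thymus, where the background was 12.5%. The other 23 did not pass. In either direction 15 of the 38 passed (39.5%), against 24% of all genes. The median difference of the 38 genes, AKR F1 minus DBA F1, was -0.21 on the log2 scale, and that of all genes tested was 0.03. Differences below 0, that is higher in DBA F1 thymus, were found for 27 of the 38.

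The differences were small. Among the 13 genes higher in DBA F1 thymus the fold ran from 1.16 to 1.95, with a median of 1.32. Oasl2 alone was called with a fold of at least 1.5, 1 of 38, where 2.71% of all genes were called that far in the same direction and 4.22% in either. All 3 DBA arrays lay above all 3 AKR arrays for 17 of the 38 genes (44.7%), against 19.4% of all genes. The reverse held for 4 of the 38 (10.5%), against 24.5% of all genes. The remaining 17 overlapped. The SD between arrays of a cross, pooled over the crosses, had a median of 0.10 over the members and ran from 0.01 to 0.27. In bulk tissue a smaller number of cells of a type and less RNA per cell cannot be told apart, and this holds for every gene below.

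**Figure D1:**
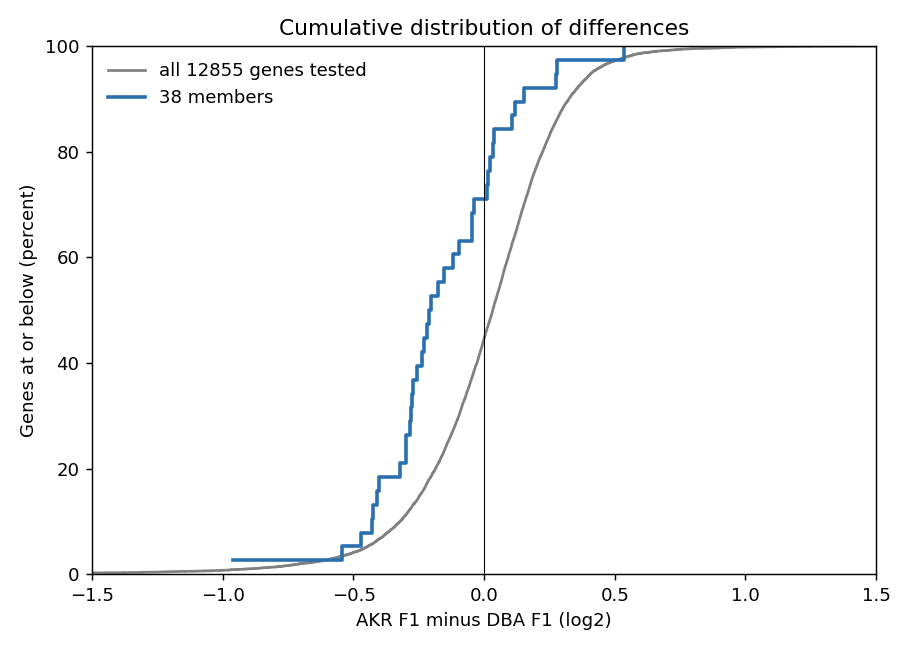
Cumulative share of genes (percent, vertical axis) at or below each difference, AKR F1 minus DBA F1 (log2, horizontal axis), for all 12855 genes tested (grey) and the 38 interferon response genes (blue). The curve of the interferon response genes lies to the left of the grey curve over most of its length, with medians of -0.21 and 0.03.

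Of the 4 sensors of foreign nucleic acid, Zbp1 passed the test. Zbp1, which binds left-handed nucleic acid and can start necroptosis, read 8.30, 8.41 and 8.24 on AKR arrays 1 to 3 and 8.69, 8.70 and 8.45 on DBA arrays 1 to 3. The groups did not overlap, but the highest AKR array and the lowest DBA array were close. The difference was -0.30 ± 0.09 (SE), 1.23-fold higher in DBA F1 thymus, with an adjusted p of 0.0481. This was the weakest of the 15 calls. It was lost without AKR array 1, 2 or 3 or DBA array 1 or 2 (adjusted p from 0.0611 to 0.147), and a second probe set of the gene differed by -0.19 and did not pass.

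Ifih1, the sensor of long double-stranded RNA also called MDA5, read 7.86, 8.11 and 8.17 in AKR F1 thymus and 8.29, 8.34 and 8.27 in DBA F1 thymus. Its groups did not overlap, yet the difference of -0.26 ± 0.10 did not pass (adjusted p = 0.0815), and AKR array 1 was well below the other AKR arrays. Dhx58 (LGP2), a relative that regulates the other RNA sensors, differed by -0.20 ± 0.11 (adjusted p = 0.192). Ddx58 (RIG-I), the sensor of short RNA with a triphosphate end, differed by 0.02, with a 95% interval from -0.15 to 0.18. Of its 2 other probe sets, one differed by -0.32 with all DBA arrays above, and one by 0.003 with overlap. Neither passed.

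None of the 4 transcription factors passed. Irf9, the DNA-binding subunit of the complex with Stat2, read 8.26, 8.32 and 8.47 in AKR F1 thymus and 8.60, 8.61 and 8.55 in DBA F1 thymus. All 3 DBA arrays were higher, by 0.24 on average, and the adjusted p was 0.0629. Irf7, which amplifies interferon alpha production, went the other way, with 8.74, 8.80 and 8.84 in AKR F1 thymus and 8.70, 8.56 and 8.29 in DBA F1 thymus. The DBA arrays of Irf7 were widely spread and DBA array 1 nearly reached the AKR arrays (difference 0.28 ± 0.11, adjusted p = 0.0869). Irf1, which is induced by interferon gamma as well, differed by 0.12 (95% interval -0.15 to 0.39). Stat2 differed by -0.05 (95% interval -0.24 to 0.15).

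All 3 measured genes of the Isg15 conjugation and ubiquitin group were higher in DBA F1 thymus. Usp18, the protease that removes Isg15 and also blocks the interferon receptor, read 8.79, 9.03 and 8.94 in AKR F1 thymus and 9.22, 9.33 and 9.18 in DBA F1 thymus. Each DBA array was above each AKR array, by 1.25-fold on average (-0.32 ± 0.08, adjusted p = 0.0238). Without AKR array 1, AKR array 3 or DBA array 2 the call was lost (adjusted p from 0.0538 to 0.0882).

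Herc6, the ligase that attaches Isg15 in the mouse, read 7.85, 8.02 and 8.06 in AKR F1 thymus and 8.37, 8.43 and 8.34 in DBA F1 thymus. The gap between the crosses was larger than the spread within either (-0.40 ± 0.09, 1.32-fold, adjusted p = 0.0106). Its 3 other probe sets differed by -0.11, -0.33 and -0.26, and the one at -0.33 passed the test adjusted over probe sets. Trim25, a ligase that activates Ddx58, read 10.16 on all 3 AKR arrays and 10.44, 10.41 and 10.45 in DBA F1 thymus. It was among the tightest members within a cross, and a difference of -0.28 ± 0.05 (1.21-fold) gave an adjusted p of 0.0074. Of its 2 other probe sets, one passed at -0.35 and one did not at -0.08.

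Within the OAS family, whose active members make 2-5A to switch on the RNA-degrading enzyme RNase L, Oasl2 alone passed. Oasl2 had the largest difference of all 38 genes, with 8.05, 8.27 and 8.16 in AKR F1 thymus and 9.11, 9.23 and 9.03 in DBA F1 thymus. The gap between the highest AKR array and the lowest DBA array was several times the spread within a cross (-0.96 ± 0.09, 1.95-fold, adjusted p = 0.00024). Its neighbour on the chromosome, Oasl1, which restrains Irf7 translation, read 6.93, 6.96 and 6.86 in AKR F1 thymus and 7.03, 6.81 and 7.03 in DBA F1 thymus. Those groups overlapped, and the difference was -0.04 with a 95% interval from -0.26 to 0.18. The other 3 of the family differed by -0.18 (Oas1a), -0.10 (Oas2) and -0.21 (Oas3), with adjusted p from 0.16 to 0.476. The difference between Oasl2 and its relatives was not itself tested.

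In the IFIT family, whose proteins bind foreign RNA and block its translation, 2 of 3 genes were higher in DBA F1 thymus. Ifit2 read 8.67, 8.80 and 8.77 in AKR F1 thymus and 9.14, 9.01 and 9.003 in DBA F1 thymus (-0.30 ± 0.08, 1.23-fold, adjusted p = 0.0216). Ifit3, its neighbour on the chromosome, read 7.69, 8.01 and 7.82 in AKR F1 thymus and 8.18, 8.34 and 8.25 in DBA F1 thymus (-0.41 ± 0.10, 1.33-fold, adjusted p = 0.0184). For both, all DBA arrays were above all AKR arrays. The Ifit2 call was lost without AKR array 1, DBA array 1 or DBA array 2 (adjusted p from 0.0531 to 0.0713). The Ifit3 call was lost without AKR array 1, AKR array 3, DBA array 2 or DBA array 3 (adjusted p from 0.0511 to 0.0706). Ifit1 did not pass. Its values were 7.89, 8.31 and 7.91 in AKR F1 thymus and 8.11, 7.95 and 8.03 in DBA F1 thymus, with AKR array 2 the highest of all 6. The difference was 0.01, with a 95% interval from -0.26 to 0.28, although its promoter stretch carries the same pair of ISRE matches as that of Ifit3. Whether Ifit1 differed from Ifit3 was not tested.

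Among the 5 enzymes that act on RNA or nucleotides, 3 were higher in DBA F1 thymus. Eif2ak2 (PKR), which stops translation on sensing double-stranded RNA, read 7.04, 7.19 and 7.13 in AKR F1 thymus and 7.55, 7.72 and 7.51 in DBA F1 thymus. The groups were clearly apart (-0.47 ± 0.09, 1.39-fold, adjusted p = 0.00819). Its 2 other probe sets passed in the same direction, with -0.54 and -0.57.

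Rsad2 (viperin), which makes a chain-terminating nucleotide, and Cmpk2, which makes its precursor, are neighbours on the chromosome and were both higher in DBA F1 thymus. Rsad2 read 7.27, 7.66 and 6.95 in AKR F1 thymus and 7.98, 7.73 and 7.80 in DBA F1 thymus. Its AKR arrays were the most widely spread of any member, and AKR array 2 nearly reached the DBA arrays (-0.54 ± 0.16, 1.46-fold, adjusted p = 0.04). A second tested probe set of Rsad2 entered the test through its DBA arrays alone, since all 3 AKR arrays were at or below the 40th percentile, and it is no support for the call. Cmpk2 read 5.81, 5.98 and 5.84 in AKR F1 thymus and 6.56, 6.13 and 6.22 in DBA F1 thymus, with DBA array 1 the highest (-0.43 ± 0.13, 1.34-fold, adjusted p = 0.0392). The Rsad2 call was lost without AKR array 1 or 3 or any 1 DBA array (adjusted p from 0.0754 to 0.105). The Cmpk2 call was lost without any 1 AKR array, DBA array 1 or DBA array 3 (adjusted p from 0.0608 to 0.105).

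Adar, which edits double-stranded RNA, and Samhd1, which depletes the nucleotides needed for DNA synthesis, did not pass. Adar differed by 0.02 (95% interval -0.14 to 0.18) in the probe set that stood for it, while a second one at -0.33 passed as higher in DBA F1 thymus and its remaining one at -0.14 did not pass. Samhd1 differed by -0.28 ± 0.14 (adjusted p = 0.165), and its 4 other probe sets, from -0.37 to 0.16, did not pass either. The Mx GTPases, which trap viral nucleocapsids, did not pass. Mx1 differed by -0.23 ± 0.10 without overlap (adjusted p = 0.115), and Mx2 by -0.15 ± 0.12 (adjusted p = 0.367).

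The membrane-anchored proteins that act on virus particles split by direction, and both members higher in AKR F1 thymus were among them. Bst2 (tetherin), which holds budding virus at the cell surface, read 8.82, 8.93 and 8.88 in AKR F1 thymus and 8.46, 8.37 and 8.19 in DBA F1 thymus. Every AKR array was above every DBA array (0.54 ± 0.09, 1.45-fold higher in AKR F1 thymus, adjusted p = 0.00354). Ly6e, a surface protein of the Ly6 family that limits entry of some viruses, read 13.43, 13.42 and 13.45 in AKR F1 thymus and 13.14, 13.16 and 13.17 in DBA F1 thymus. Pooled over the crosses, the spread between arrays was the smallest of any member (0.28 ± 0.03, 1.21-fold, adjusted p = 0.000759). A second Ly6e probe set differed by 0.12 and did not pass. Ifitm3, which blocks fusion of virus in endosomes, was higher in DBA F1 thymus, with 11.38, 11.42 and 11.44 in AKR F1 thymus and 11.65, 11.68 and 11.57 in DBA F1 thymus (-0.22 ± 0.05, 1.16-fold, adjusted p = 0.0129). This was the smallest fold among the called members, and the call was lost without DBA array 2 (adjusted p = 0.0549).

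Parp9, Parp14 and Dtx3l lie side by side, and the products of Parp9 and Dtx3l form a ubiquitin ligase complex. None of the 3 passed. Parp14 read 8.41, 8.50 and 8.31 in AKR F1 thymus and 8.72, 8.79 and 8.52 in DBA F1 thymus. Its groups were just apart (-0.27 ± 0.09, adjusted p = 0.0651), whereas Parp9 differed by -0.05 and Dtx3l by 0.04, with intervals that spanned 0. A second Dtx3l probe set differed by 0.18 with all AKR arrays above, and a second Parp14 probe set by -0.16 with overlap. Neither passed. Galectin 9 (Lgals9) differed by 0.11 ± 0.05 with all AKR arrays above (adjusted p = 0.143), and the galectin-binding protein Lgals3bp by 0.03 ± 0.08.

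Among the remaining 4 measured genes, Ifi35 and Rtp4 were higher in DBA F1 thymus. Ifi35, a leucine zipper protein, read 10.12, 10.08 and 10.13 in AKR F1 thymus and 10.38, 10.44 and 10.33 in DBA F1 thymus (-0.28 ± 0.06, 1.21-fold, adjusted p = 0.0102). A second Ifi35 probe set passed at -0.27 and the remaining one at -0.16 did not. Rtp4, a receptor-transporting protein, read 9.06, 9.29 and 8.97 in AKR F1 thymus and 9.65, 9.55 and 9.40 in DBA F1 thymus (-0.43 ± 0.10, 1.34-fold, adjusted p = 0.0162). For both genes the groups did not overlap, and the Rtp4 call was lost without AKR array 3 or DBA array 2 (adjusted p from 0.0525 to 0.0571). Sp100, a nuclear body protein, differed by -0.12 ± 0.08 (adjusted p = 0.303).

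Xaf1, a pro-apoptotic factor, gave 2 answers. The probe set that stood for it read 8.41, 8.72 and 8.54 in AKR F1 thymus and 8.46, 8.52 and 8.24 in DBA F1 thymus, and the difference of 0.15 ± 0.11 did not pass (adjusted p = 0.328). The other read 5.04, 4.68 and 4.46 in AKR F1 thymus and 8.81, 8.77 and 8.89 in DBA F1 thymus, a difference of -4.09 ± 0.14. All 3 AKR arrays of that second probe set were at or below the 40th percentile of the array, so its log2 difference compares a clear signal with a dim one. The probe sequences were not analysed here, and which probe set follows the gene's RNA was not tested. Over all members, 30 further probe sets carried the symbol, 26 of them were tested, 8 were higher in DBA F1 thymus, 0 were higher in AKR F1 thymus and 18 did not pass (limma, adjusted over probe sets). Of the 8, those of Xaf1 and Rsad2 (2) were dim on all AKR arrays and could pass in that direction only, and the other 6 were above the filter in both crosses.

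**Figure D2:**
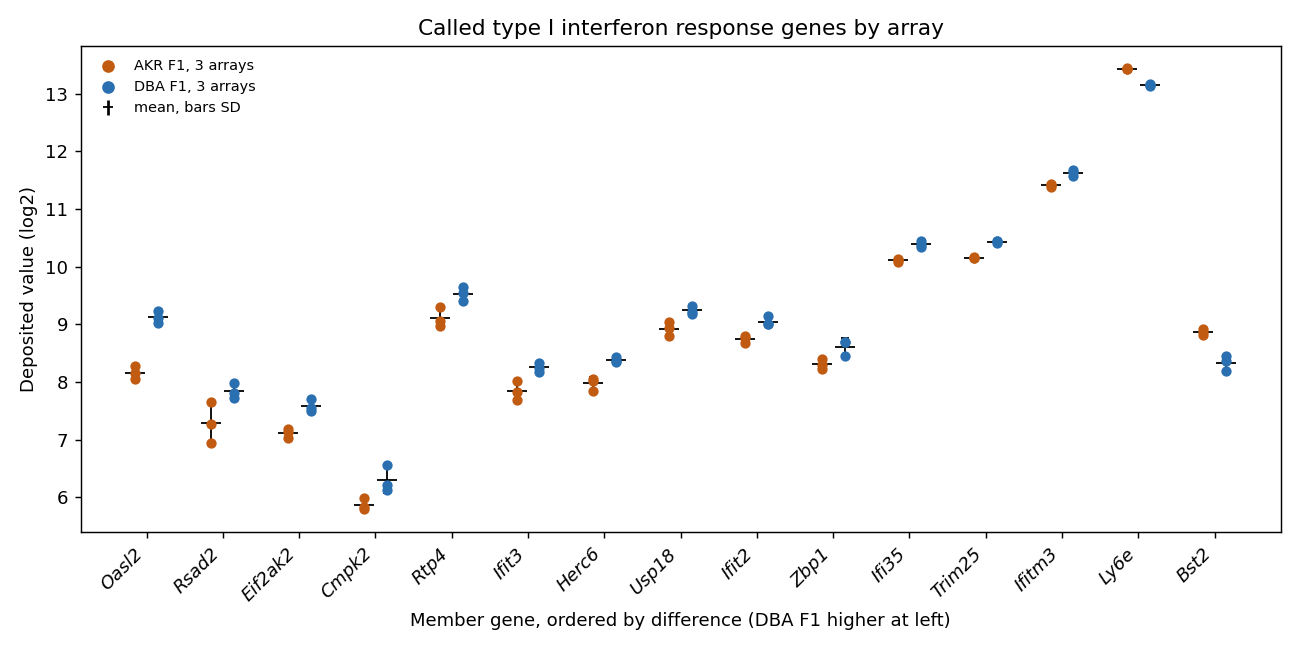
Deposited value (log2, vertical axis) of the 15 called interferon response genes (horizontal axis) on each array. Orange points are the 3 AKR arrays, blue points the 3 DBA arrays, and the black marks the mean with the SD as bars. Oasl2 has the widest gap, and Ly6e and Bst2 at the right are the only genes with the orange points above the blue.

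**Figure D3:**
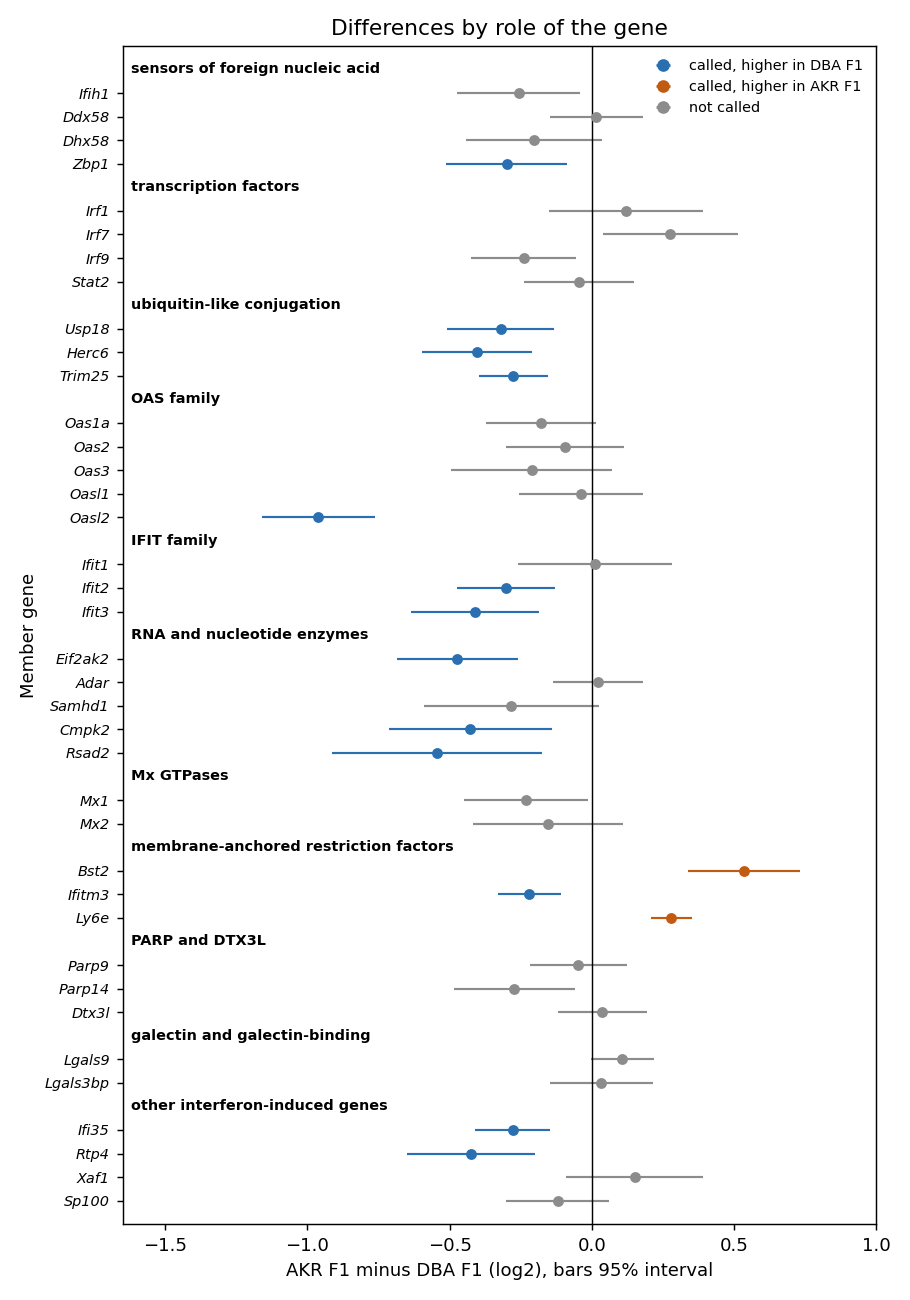
Difference between the crosses, AKR minus DBA (log2, horizontal axis), of each of the 38 measured genes, grouped by role (vertical axis). Points are estimates and bars 95% intervals, blue where the gene was called higher in DBA F1 thymus, orange where it was called higher in AKR F1 thymus and grey where it was not called. Differences of the 23 genes that were not called run from -0.28 to 0.28.

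The arrays of a cross were not alike for these genes. The median deviation of the 38 genes from their means was -0.14, -0.02 and -0.10 on AKR arrays 1 to 3 and 0.12, 0.10 and 0.08 on DBA arrays 1 to 3. The crosses did not overlap, and over all genes tested the same quantity stayed between -0.03 and 0.02. AKR array 1 was the lowest of its cross for 27 of the 38 genes and AKR array 2 the highest for 22. DBA array 3 was the lowest of its cross for 24 of the 38. The 23 genes that were not called gave -0.11, 0.02 and -0.01 in AKR F1 thymus and 0.05, 0.04 and -0.01 in DBA F1 thymus, which overlap.

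Leaving out 1 array at a time changed how many of these genes passed. The 13 genes higher in DBA F1 thymus fell to 7 without AKR array 1, 7 without AKR array 3 (where Irf9 passed as well, for a count of 8) and 6 without DBA array 2. Of the same 13, 9 to 11 passed without any 1 of the others. The share of all genes called fell as well, from 24% to between 14.2% and 19.5%. Of the 15 called genes, 7 passed whichever 1 array was left out, namely Oasl2, Eif2ak2, Trim25, Herc6, Ifi35, Bst2 and Ly6e. The median difference of the 38 genes ran from -0.23 to -0.14 over these fits and stayed below 0.

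The genes that make or carry the signal were counted against the same background of 24%. Of the 9 interferon ligand genes with a probe set, only 3 were above the filter, and 0 of them passed. The values of Ifnz (interferon zeta) were 7.13, 7.54 and 7.74 in AKR F1 thymus and 6.91, 7.09 and 7.54 in DBA F1 thymus, which overlap, and Ifna1 differed by -0.04 ± 0.13. Of 9 receptor and JAK-STAT genes, Stat3 alone passed, at 0.19 ± 0.05 higher in AKR F1 thymus (adjusted p = 0.0368), and its call was lost without any 1 of the 6 arrays (highest adjusted p 0.117). The receptor chains leaned in opposite directions without passing, Ifnar1 at -0.25 ± 0.09 (adjusted p = 0.0741) and Ifnar2 at 0.18 ± 0.07 (adjusted p = 0.0952).

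Of 13 adaptors and factors upstream of interferon, 3 were higher in AKR F1 thymus and 1 in DBA F1 thymus. Mavs, the mitochondrial adaptor of Ddx58 and Ifih1, read 8.05, 8.02 and 7.96 in AKR F1 thymus and 7.59, 7.55 and 7.47 in DBA F1 thymus (0.47 ± 0.08, adjusted p = 0.00419). Unc93b1, the chaperone of the nucleic acid-sensing Toll-like receptors, was higher in AKR F1 thymus by 0.50 ± 0.08 (adjusted p = 0.00401). Irf3, the factor that first induces interferon, differed by 0.30 ± 0.07 (adjusted p = 0.0158) and lost its call without AKR array 1, DBA array 2 or DBA array 3 (highest adjusted p 0.057). Tbk1, the kinase that activates Irf3, went the other way at -0.44 ± 0.07 (adjusted p = 0.00384). The median difference of the 13 genes was 0.05, close to that of all genes.

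Of 11 negative regulators, 3 were higher in AKR F1 thymus and 2 in DBA F1 thymus. Socs1, which inhibits the JAK kinases, had the largest difference of this list, with 9.52, 9.41 and 9.60 in AKR F1 thymus and 8.64, 8.75 and 8.55 in DBA F1 thymus. The groups were far apart (0.87 ± 0.08, 1.82-fold higher in AKR F1 thymus, adjusted p = 0.000279). Pias1, a SUMO ligase that restrains interferon signalling, was also higher in AKR F1 thymus (0.35 ± 0.08, adjusted p = 0.012), but its direction turned, to -0.12 without passing, when the probe sets of a gene were averaged. Rnf125, a ligase that marks Ddx58 for degradation, was higher in DBA F1 thymus (-0.73 ± 0.17, adjusted p = 0.0154), but not without AKR array 2 (adjusted p = 0.0549). Cyld, a deubiquitinase, was higher in DBA F1 thymus by a smaller margin (-0.26 ± 0.07, adjusted p = 0.0194) and lost its call without AKR array 2, DBA array 1 or DBA array 2 (highest adjusted p 0.0586). Usp18, which is also a negative regulator, is described above among the members.

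Interferon-stimulated genes outside the 40 were counted too. Of 44 further ones tested, 9 (20.5%) were higher in DBA F1 thymus and 3 (6.82%) in AKR F1 thymus. Over all genes these shares were 11.5% and 12.5%. In either direction 27.3% of the further genes passed, near the 24% of all genes. Their median difference was -0.13, and that of all genes 0.03. Trim30a, a mouse TRIM protein, read 8.33, 8.31 and 8.48 in AKR F1 thymus and 9.65, 9.70 and 9.71 in DBA F1 thymus (-1.31 ± 0.07, 2.48-fold, adjusted p = 1.68e-05). Helz2 (-0.48 ± 0.07) and the chemokine Cxcl10 (-0.37 ± 0.07) were higher in DBA F1 thymus as well (adjusted p = 0.00234 and 0.00848). Ifitm1 went the other way and lies next to Ifitm3. Its values were 9.46, 9.79 and 9.62 in AKR F1 thymus and 8.67, 8.62 and 8.83 in DBA F1 thymus (0.91 ± 0.10, 1.88-fold higher in AKR F1 thymus, adjusted p = 0.00056). These neighbouring paralogs therefore differed in opposite directions.

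Of 10 interferon-inducible GTPases, which answer interferon gamma strongly, 5 (50%) were higher in DBA F1 thymus and 1 (10%) in AKR F1 thymus. Over all genes these shares were 11.5% and 12.5%. In either direction 60% of the GTPases passed, against 24% of all genes, and their median was -0.29. Gbp8 was the exception, above in AKR F1 (1.70 ± 0.09, adjusted p = 1.12e-05). Ifi47 (-0.52 ± 0.07, adjusted p = 0.00133), Irgm1 (-0.43 ± 0.07, adjusted p = 0.00409) and Iigp1 (-0.57 ± 0.12, adjusted p = 0.00884) were among those higher in DBA F1 thymus. Since interferon gamma induces many of the members as well, these arrays cannot tell the types of interferon apart. Whether any interferon had a part in the differences was not tested.

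The genes next to the called members on the chromosome were counted too. Of 25 nearest tested genes that were not members, 3 were higher in AKR F1 thymus, 1 was higher in DBA F1 thymus and 21 did not pass, so 16.0% passed, where 24% of all genes did. Beside the members that did not pass, 13.5% of 37 neighbours did. Next to Bst2, Mvb12a, a subunit of the ESCRT-I sorting complex, was also higher in AKR F1 thymus (0.36 ± 0.09, adjusted p = 0.0213), a call lost without any 1 AKR array (highest adjusted p 0.0624). Next to Zbp1, Pck1, an enzyme of glucose synthesis, was higher in DBA F1 thymus (-1.03 ± 0.30, adjusted p = 0.0359), but not without AKR array 1 or 3 or any 1 DBA array (highest adjusted p 0.1). Lipa, a lysosomal lipase beside Ifit2, went against that member and was higher in AKR F1 thymus (0.26 ± 0.08, adjusted p = 0.0485), a call lost without AKR array 1 or 3 or DBA array 2 or 3 (highest adjusted p 0.153).

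The tissue label was borne out by the markers, since Rag1, which cuts the receptor genes, averaged 13.03 and Cd8b1, a coreceptor chain, 12.62 on a scale that ran from 2.48 to 14.42. Both were named for the label, not by the rule for called genes. Of the 13 thymocyte markers tested 2 were higher in AKR F1 thymus, Thy1 (0.37 ± 0.05, adjusted p = 0.00092) and Cd3e (0.30 ± 0.04, adjusted p = 0.0021), and 0 in DBA F1 thymus. Some markers of cell types within the thymus also differed between the crosses, and their part in the results on the interferon response genes was not tested. Of all genes, 11.5% were higher in DBA F1 thymus and 12.5% in AKR F1 thymus, 24% in all. The shares called among conventional dendritic (25%), plasmacytoid dendritic (20%) and cortical epithelial markers (30%) were near that, and that of thymocyte markers (15.4%) was lower. The other cell type lists ran from 40% to 72.7%. Summed levels add linear values, so the brightest genes weigh most. Of 11 medullary epithelial markers tested, 7 were higher in DBA F1 thymus and 1 in AKR F1 thymus, with a median of -0.37 and a log2 summed level of 11.64 to 11.72 on the AKR arrays and 11.89 to 12.07 on the DBA arrays. Among them were Csn2 (-0.85 ± 0.08, adjusted p = 0.00024), Avil (-0.85 ± 0.11, adjusted p = 0.00151) and Epcam (-0.59 ± 0.09, adjusted p = 0.00211), while Cldn4 was higher in AKR F1 thymus (1.24 ± 0.13, adjusted p = 0.000456).

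Of 10 granulocyte markers 4 were higher in DBA F1 thymus and 0 in AKR F1 thymus. Their log2 summed level was lowest on AKR array 1, at 10.65, against 11.22 and 11.37 on the other AKR arrays and 11.57 to 11.94 on the DBA arrays. S100a8 (-0.96 ± 0.19, adjusted p = 0.00796) and its partner S100a9 (-0.97 ± 0.22, adjusted p = 0.0136) were among them, S100a9 not without DBA array 2 (adjusted p = 0.0567). Ltf (-0.45 ± 0.14) and Mpo (-0.33 ± 0.10) passed by less. The Ltf call was lost without any 1 array other than AKR array 3 (highest adjusted p 0.12). The Mpo call was lost without any 1 of the 6 arrays (highest adjusted p 0.138). Of 13 innate-like T cell markers 6 were higher in DBA F1 thymus and 1 in AKR F1 thymus, with summed levels of 11.996 to 12.14 on the AKR arrays and 12.48 to 12.53 on the DBA arrays. The smallest adjusted p were those of Zbtb16 (-2.09 ± 0.12), Maf (-1.17 ± 0.10), Icos (-0.87 ± 0.09) and Id2 (-0.68 ± 0.09). Without probe sets whose name ends in _s_at, _x_at or _a_at, Id2 did not pass (0.04). Il4, also among the 6, was at or below the 40th percentile on all 3 AKR arrays, could pass in that direction only and was not tested without any 1 DBA array.

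B cell markers went the other way, with 5 of 10 higher in AKR F1 thymus and 0 in DBA F1 thymus, and summed levels of 10.94 to 11.01 on the AKR arrays and 10.58 to 10.66 on the DBA arrays. They included Cr2 (0.93 ± 0.11), Cd79a (0.74 ± 0.10), Cd22 (0.52 ± 0.09) and Cd79b (0.44 ± 0.12), the last of which lost its call without AKR array 1 or 3 or DBA array 2 or 3 (highest adjusted p 0.0888). Cr2 and Pax5, the remaining call, were each at or below the 40th percentile of the array on 2 DBA arrays.

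For plasmacytoid dendritic cells, which make large amounts of interferon alpha, 1 listed marker was called in each direction. Bst2, higher in AKR F1 thymus, was counted among the members and was not in this list. Of 10 of their markers, Klk1 was higher in AKR F1 thymus (0.66 ± 0.11, adjusted p = 0.00358) and Atp1b1 in DBA F1 thymus (-0.30 ± 0.07, adjusted p = 0.015, lost without AKR array 2 at 0.0502). Their summed level was 13.20 to 13.47 on the AKR arrays and 13.37 to 13.43 on the DBA arrays, which overlap. Ccr9, the brightest of the 10 with a mean of 12.62, weighs most in that sum. Whether the sum follows these cells in whole thymus was not tested. Of 12 conventional dendritic cell markers 2 were higher in AKR F1 thymus and 1 in DBA F1 thymus. These were Cd209a (0.56 ± 0.11), Flt3 (0.31 ± 0.09, lost without any 1 of the 6 arrays, highest adjusted p 0.121) and Fscn1 (-0.45 ± 0.10). Fscn1 turned to 0.22 when probe sets were averaged. It turned to 0.10 without probe sets whose name ends in _s_at, _x_at or _a_at, and passed in neither setting. Their summed levels overlapped at 11.77, with 11.53 to 11.77 on the AKR arrays and 11.77 to 11.96 on the DBA arrays.

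Macrophage and monocyte markers split 5 and 2 of 17, AKR F1 first. Their summed levels were 14.33 to 14.41 on the AKR arrays and 14.19 to 14.29 on the DBA arrays, which do not overlap. Their median deviations did overlap, at -0.01 to 0.03 on the AKR arrays and -0.04 to 0.03 on the DBA arrays. The smallest adjusted p were those of Cd163 (-1.02 ± 0.18), Timd4 (0.78 ± 0.15), Fcgr3 (-0.56 ± 0.12) and Lyz2 (0.27 ± 0.06). Cortical epithelial markers split 3 and 0 of 10. Their summed levels were 15.15 to 15.21 and 15.01 to 15.11, again without overlap, while their median deviations overlapped (-0.003 to 0.04 and -0.07 to 0.02). The 3 were Ctsl (0.31 ± 0.04), Foxn1 (0.67 ± 0.12) and Dll4 (0.36 ± 0.11), and the Dll4 call was lost without any 1 array other than AKR array 3 (highest adjusted p 0.142). Mature thymocyte markers split 2 and 4 of 14, with summed levels of 13.65 to 13.81 and 13.86 to 13.90. Their median deviations overlapped (-0.13 to 0.08 and 0.02 to 0.11). Slfn1 (-1.36 ± 0.12) and Ms4a4b (-0.71 ± 0.10) led by adjusted p. Ms4a6b (-0.29 ± 0.08) and Gimap3 (0.38 ± 0.10) followed, and each lost its call without 1 of 4 arrays, AKR 1, AKR 2, DBA 1 or DBA 2 for Ms4a6b and AKR 2, AKR 3, DBA 1 or DBA 3 for Gimap3 (highest adjusted p 0.0782 and 0.0747).

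**Figure D4:**
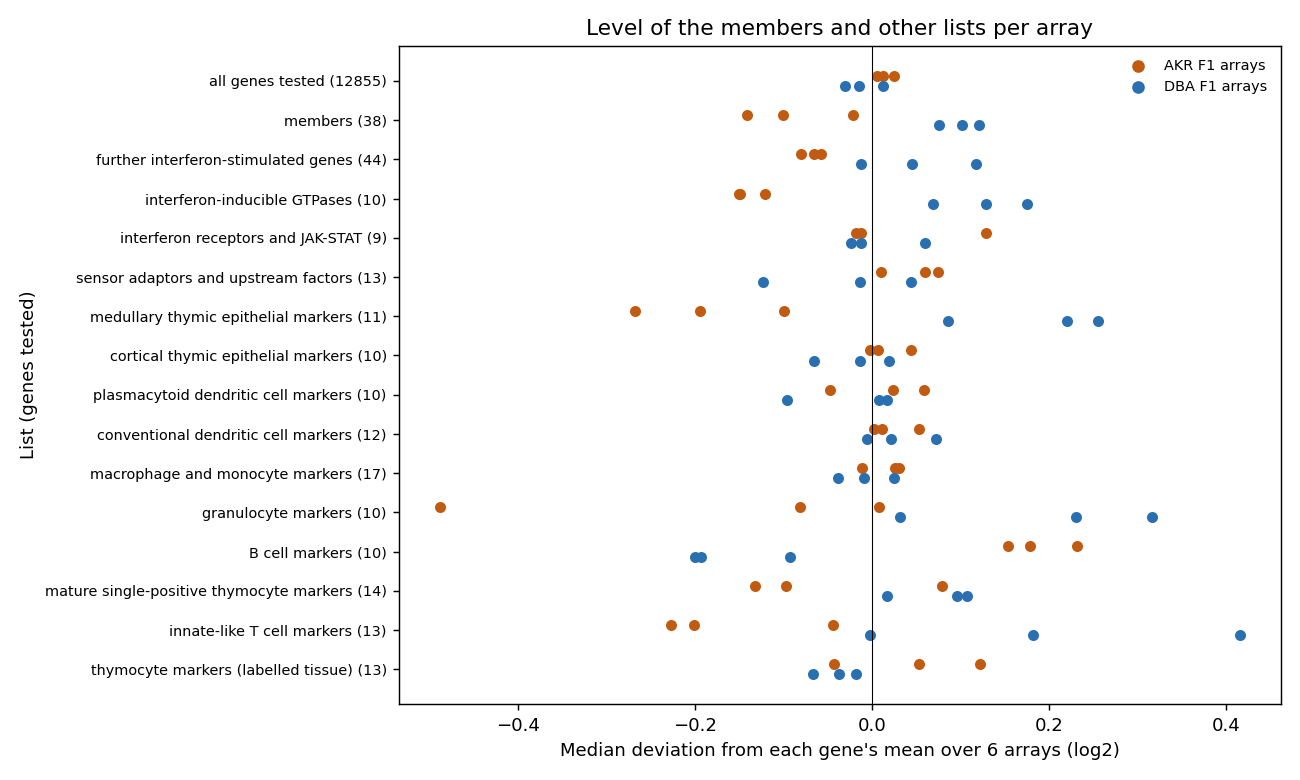
Median deviation of each list from its genes' means over the 6 arrays (log2, horizontal axis), with the number of genes tested in brackets on the vertical axis. Orange points are AKR arrays and blue points DBA arrays. The interferon response genes lie between -0.14 and -0.02 on the AKR arrays and between 0.08 and 0.12 on the DBA arrays, while all genes tested stay near 0.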

How the data were processed

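Thymus RNA of 2 crosses was measured on 6 Affymetrix arrays, 3 per cross. The deposited values are on a log2 scale, already normalized by the authors. Per the submitters' processing notes the tools were MAS5 and RMA. Their versions, and which of the pair made these values, are not given in the sources used here.

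No further normalization was applied, and array medians lay between 5.918 and 5.945. No 2 arrays were identical. Control probe sets (64) were left out, leaving 45037, of which 34945 had 1 symbol, 932 several and 9160 none in the platform annotation. Probe sets above the 40th percentile on at least 3 arrays (27385) were fitted with limma 3.58.1 (lmFit, eBayes with trend) in R 4.3.3, tested beforehand on simulated data. The tested probe set with the highest mean stood for a gene, and Benjamini-Hochberg adjustment ran over 12855 genes with a threshold of 0.05. Folds come from log2 means. Figures were drawn with matplotlib 3.10.9 in Python 3.11.15. The number of arrays limits the precision. Differences in genome sequence between the strains under the probes were not analysed here.

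Every member was named, with array values where called and also where a relative was called or groups were close. From the other lists the called genes with the smallest adjusted p, up to 4, were named, or the brightest where none passed. Rag1, Cd8b1, the receptor chains, Il4, Pax5 and Ccr9 were named beside them. Neighbouring genes were named after their values were seen. The members and lists were chosen with earlier results of these data known. Alternatives covered the filter, scaling, variance model, array weights, replicate block, choice of probe set and omission of arrays.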

Additional observations from a re-analysis of the deposited data

How the results depend on the processing

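Of the 15 called members, 0 changed sign in any of the 20 alternatives, and 3 (Oasl2, Eif2ak2 and Bst2) passed in every alternative that measured them. Of the 23 others, 17 passed in none and 6 in at least 1. With each gene's own variance only, 726 genes were higher in AKR F1 thymus and 641 in DBA F1 thymus (1604 and 1480 with shared variance), with 6 members in DBA F1 thymus. Without probe sets whose name ends in _s_at, _x_at or _a_at, 30 members were tested, 8 were higher in DBA F1 thymus and 1 in AKR F1 thymus. Ly6e (0.12), Ifi35 (-0.16) and Zbp1 (-0.19) did not pass in the probe sets that then stood for them. Oasl2, Trim25 and Cmpk2 were not measured in that setting. When the probe sets of a gene were averaged, Xaf1 turned from 0.15 to -1.97 (adjusted p = 3.46e-06), because its second probe set then counted. Quantile normalization moved the share of called genes that were higher in AKR F1 thymus from 52% to 62%, with 11 members in DBA F1 thymus and 3 in AKR F1 thymus, and Zbp1 (adjusted p = 0.0741) and Rsad2 (0.0544) lost their calls.

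Leaving out 1 array at a time gave 893 to 1425 genes higher in AKR F1 thymus, 923 to 1199 higher in DBA F1 thymus, 6 to 11 members higher in DBA F1 thymus and a member median from -0.23 to -0.14. Without both AKR array 1 and DBA array 3, chosen after seeing the data because they were most often the lowest of their cross, 570 genes were higher in AKR F1 thymus and 762 in DBA F1 thymus, with 5 members in DBA F1 thymus. Whether the shared replicate numbers pair the samples was not settled, and the main fit did not pair them. Deviations of same-numbered arrays correlated at 0.368, 0.0033 and 0.382. Those of AKR array 1 with DBA array 3 and of AKR array 3 with DBA array 1 correlated at -0.315 and -0.411. Arrays numbered 2 correlated better with another number. With the replicate block, 2177 genes were higher in AKR F1 thymus and 2017 in DBA F1 thymus, with 17 members in DBA F1 thymus and 2 in AKR F1 thymus. Dim probe sets limit the interferon ligands, of which 6 with a probe set were not tested.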
